A study of Mus musculus with 6 samples.

Results

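The cadherin genes described here were Cdh1, Cdh2, Cdh4, Cdh5, Cdh6, Cdh11, Cdh13 and Cdh19, chosen by name: 8 of the 31053 genes in the single-cell count matrices, each found as 1 row. They were followed across fibroblast (mesenchymal), mural, endothelial, Schwann and immune cell classes of tissue taken from the surface of the adult mouse brain and from the inner side of the skull. Cdh5 was highest in endothelial-like cells in both preparations and was also present, at a lower level, in the mesenchymal-like cells of the cortical surface. Cdh11 was highest in bone-associated mesenchymal-like cells, Cdh6 in vascular smooth muscle cell (VSMC)-like cells and Cdh19 in Schwann-like cells. Cdh2 was highest in pericyte-like cells on the cortical surface and in Schwann-like and pericyte-like cells of the bone-associated tissue. Cdh13 was highest in clusters led by Gkn3, and Cdh1 and Cdh4 were scarce, with 73 and 103 UMIs over all classes.

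The 6 libraries came from adult C57BL6 mice with no transgene or treatment, each a pool of mice of both sexes. Of these, 4 cortical surface-associated libraries (tissue label Brain) were made from the top of the cortex, and 2 bone-associated libraries (tissue label Dura/Skull) from connective tissue dissected from the skull. Viable cells were sorted (DRAQ5-positive and propidium iodide-negative) and captured by the 10X Genomics 3' method. The question the preparations address is how cells that face the brain differ from those that face the bone. The mice were not perfused, so blood cells could be present.

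Cadherins are calcium-dependent adhesion proteins. The outer repeats of a classical cadherin bind a cadherin on the neighbouring cell, and the tail inside the cell holds catenins that link the contact to actin. Cells with the same cadherins tend to adhere to each other, so the set of cadherins in a tissue is often read as a map of which cells touch. In the meninges Cdh1 (E-cadherin) is known as a protein of the arachnoid barrier, Cdh5 (VE-cadherin) of endothelial junctions, Cdh2 (N-cadherin) of contacts between pericytes and endothelium, and Cdh11 of fibroblasts and bone-forming cells.

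Classical cadherins are cut after a basic motif, and the new end carries the tryptophans that are exchanged between partner molecules. The first 10 codons after that cut are shown because they sort the 8 genes into their families. The bases were read from the GENCODE transcripts of GRCm38 (mm10), 5′ to 3′ on the coding strand, with the TGG (tryptophan) codons in capitals:
Cdh1: gacTGGgtcatccctcccatcagctgcccc
Cdh4: gacTGGgtcatcccacccatcaacgttccc
Cdh5: gacTGGattTGGaatcaaatgcacatcgat
Cdh6: agtTGGatgTGGaatcagttcttcctcctg
Cdh11: ggcTGGgtcTGGaaccaattctttgtgata
Cdh19: gccTGGgtgTGGagaccatttgttgttcta
Cdh13: tccattgtggtgtcccccatcttgatccca

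A single TGG codon, at codon 2, was present in 3 genes, Cdh1, Cdh4 and Cdh2 (counted but not printed). Codons 2 and 4 were both TGG in 4 genes, Cdh5, Cdh6, Cdh11 and Cdh19. Cdh13 (T-cadherin), which is held at the membrane by a lipid anchor and has no catenin-binding tail, had 0. The stretches lie within 1 coding exon each. That of Cdh1 is in exon 4 of 16 (chr8:106653582-106653611, plus strand), that of Cdh4 in exon 4 of 16 (chr2:179797560-179797589, plus) and that of Cdh5 in exon 2 of 12 (chr8:104113034-104113063, plus). Cdh6 has it in exon 2 of 12 (chr15:13091689-13091718, minus strand), Cdh11 in exon 3 of 13 (chr8:102679651-102679680, minus), Cdh13 in exon 4 of 14 (chr8:118757416-118757445, plus) and Cdh19 in exon 2 of 12 (chr1:110954602-110954631, minus). Of the 8 genes, 4 (Cdh1, Cdh5, Cdh11 and Cdh13) lie on chromosome 8. Cdh11 overlaps 4 other annotated genes on its own strand (Gm45257, 9430099M06Rik, Gm26301 and Gm45258), Cdh19 overlaps 2 (Gm38255 and Gm36944) and Cdh13 overlaps 1 (Gm22999). These are overlaps of whole gene spans, introns included. Overlap of exons was not examined, so whether reads of these genes could be told apart by position is not known.

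The libraries held 8408685 to 56169736 unique molecular identifiers (UMIs, the count of captured RNA molecules) over 951 to 5602 barcodes. After filters 5272 cortical surface cells and 3408 bone-associated cells remained, with a median of 5458 to 9525 UMIs. In cortical surface libraries 3 and 4, 17.9% and 11.8% of UMIs in kept cells were hemoglobin RNA, against 0.0982% to 0.524% elsewhere. A pair of libraries shared at most 2 cell barcodes. Of the kept cells, 12% on the cortical surface and 14.6% in the bone-associated libraries were in clusters left without a name. Cell classes were rebuilt by clustering without the 118 cadherin superfamily genes and named from markers, hence "-like". The replicate is the library, a pool of mice, so the tests see the spread between pools and not between mice. Levels are given in CPM (a gene's UMIs in the cells of a class in a library, per 1000000 UMIs of all genes in those cells), and means are given with the SD over libraries that hold at least 10 cells of the class. Intervals on shares of cells are 95% exact (Clopper-Pearson). For a count of 0 cells, the limit given is instead 3 cells over the total. Both cover counting error only and concern cells with a UMI, not cells that express the gene.

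**Figure D1:**
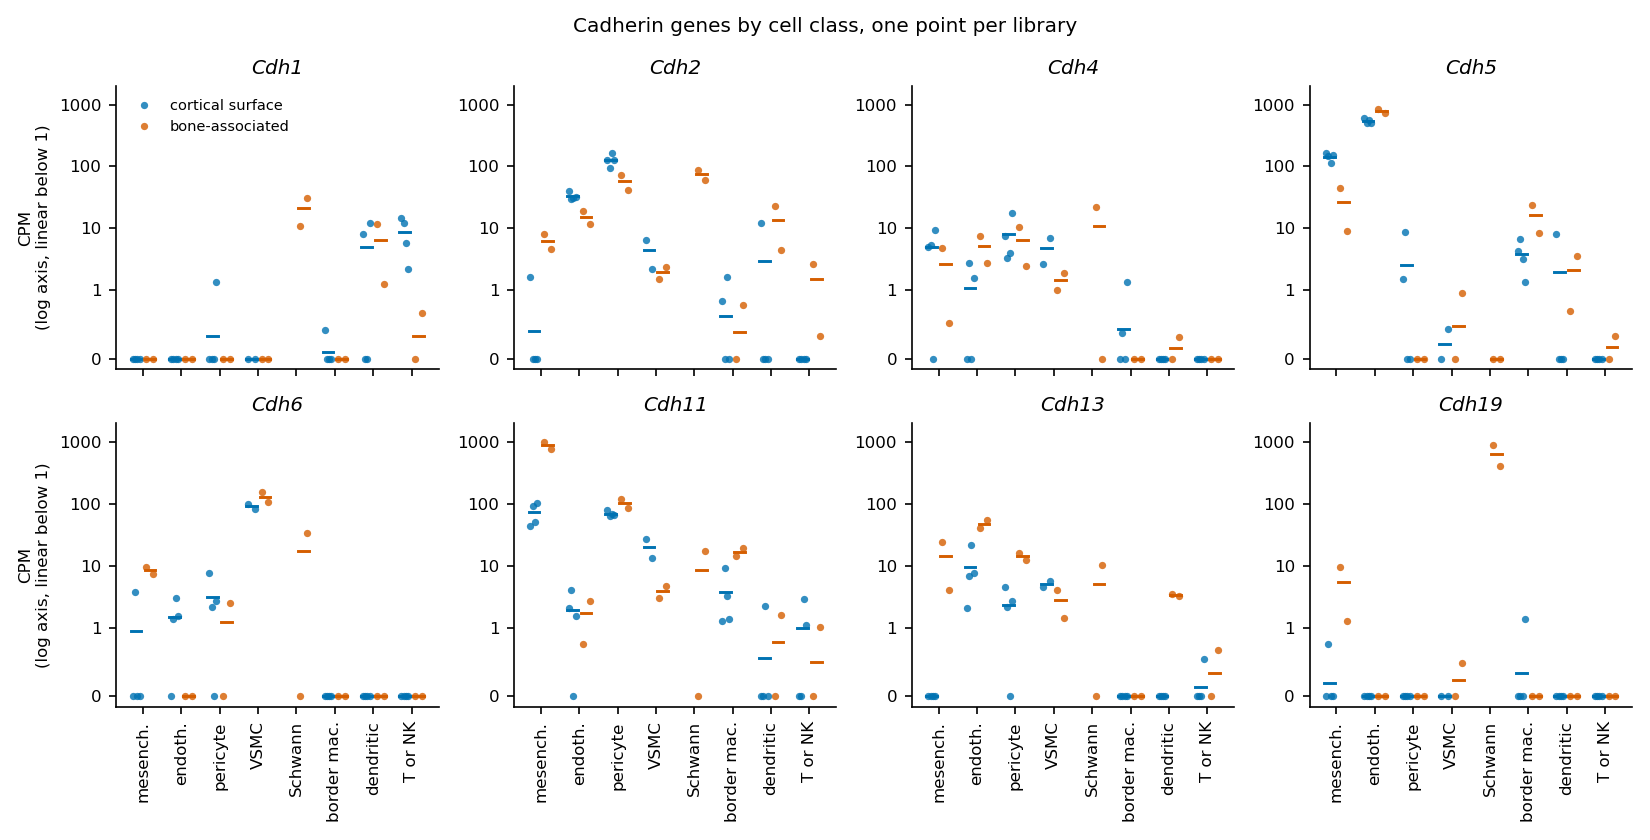
Level in CPM (log axis, linear below 1) of each cadherin gene in 8 cell classes, 1 point per library and a bar at the mean, cortical surface in blue and bone-associated in orange. Cdh5 is high in endothelial-like cells and in cortical surface mesenchymal-like cells, Cdh11 in bone-associated mesenchymal-like cells, Cdh2 in pericyte-like cells, Cdh6 in VSMC-like cells and Cdh19 in Schwann-like cells.

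Cdh5, the adhesion protein of endothelial junctions, was measured at 601, 498, 571 and 509 CPM in the endothelial-like cells of cortical surface libraries 1 to 4 (mean 545 ± 49.6). The bone-associated endothelial-like cells had 862 and 726 (794 ± 96.1). At least 1 Cdh5 UMI was found in 398 of 462 cortical surface cells of the class (86.1%, interval 82.7 to 89.2) and in 437 of 452 bone-associated cells (96.7%, 94.6 to 98.1). The next class in both preparations was the mesenchymal-like class, and no library of it reached the lowest endothelial-like library.

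In mesenchymal-like cells the 2 preparations differed in the levels of Cdh5 and Cdh11. Cdh5 was 163, 147, 112 and 152 CPM in cortical surface libraries 1 to 4 (143 ± 22.0, n = 4) and 45.1 and 9.01 in bone-associated libraries 1 and 2 (27.0 ± 25.5, n = 2). All 4 cortical surface libraries were above both bone-associated libraries. Cdh11, a cadherin of mesenchymal and bone-forming cells, ran the other way, at 44.5, 90.9, 50.5 and 105 in the cortical surface libraries (72.6 ± 29.7) and 996 and 775 in the bone-associated libraries (886 ± 156). The groups did not overlap for Cdh11 either.

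The comparison used sums of UMIs per library and class, edgeR's quasi-likelihood test and Benjamini-Hochberg adjustment over all genes tested; a gene was called at an adjusted p below 0.05 and a log2 fold change of at least 1.3 in size. Of 9568 genes tested in mesenchymal-like cells, 14.9% were called. Of the 8 cadherin genes, 2 passed the detection filter (a UMI in over 10% of the cells of a group) and both were called. Cdh5 was 6.99-fold higher on the cortical surface (log2 fold change 2.81 ± 0.46 SE, edgeR adjusted p = 6.86e-05). The log2 value was 3.99 without bone-associated library 1 and 1.76 without bone-associated library 2, called both times. Cdh11 was 12.1-fold lower there (log2 fold change -3.60 ± 0.30 SE, edgeR adjusted p = 9.34e-09). Preparation and dissection were the same split of the samples, and no library held both, so they cannot be told apart in this or any other comparison between the preparations.

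**Figure D2:**
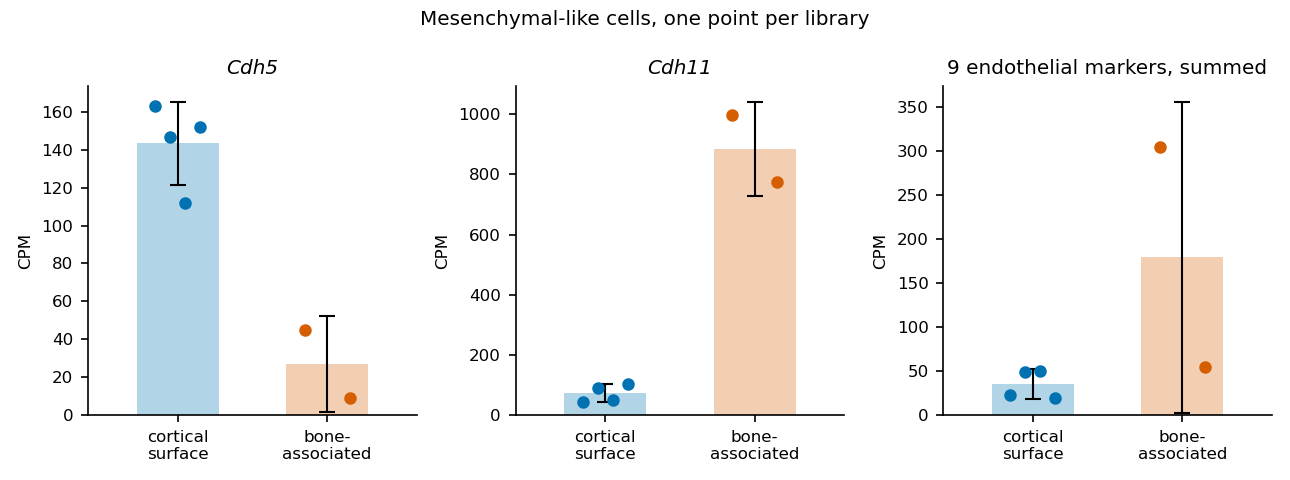
Cdh5, Cdh11 and the summed level of 9 endothelial markers in mesenchymal-like cells, in CPM, with 1 point per library, bars at the mean and error bars of 1 SD (n = 4 cortical surface, n = 2 bone-associated). Cdh5 was higher and the endothelial markers lower on the cortical surface (markers 19.0 to 50.5) than in the bone-associated libraries (markers 54.1 and 304).

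The other 6 genes did not pass the filter in mesenchymal-like cells. Cdh13 had 0 UMIs in the cortical surface cells of the class and 24.1 and 4.12 CPM in the bone-associated libraries, where 27 of its 31 UMIs lay in the 14 cells of 1 cluster led by Ptx3. Cdh2 was at 0.412 ± 0.823 on the cortical surface, from a single UMI, and 6.34 ± 2.41 in the bone-associated cells. The corresponding levels of Cdh6 were 0.955 ± 1.91 and 8.43 ± 1.73, and those of Cdh19 were 0.191 ± 0.382 and 5.47 ± 5.92. Cdh4 (R-cadherin) was at 4.95 ± 3.89 and 2.67 ± 3.05, ranges that overlapped. No Cdh1 UMI was found in 264 cortical surface mesenchymal-like cells, which allows a share of cells with a UMI of up to 1.14%, or in 297 bone-associated cells, which allows up to 1.01%.

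Cdh5 UMIs in cortical surface mesenchymal-like cells were spread over many cells. They were found in 169 of 264 cells (64.0%, 57.9 to 69.8), against 31 of 297 bone-associated cells (10.4%, 7.20 to 14.5). The cortical surface cells were shallower (median 7589 UMIs) than the bone-associated cells (14745 UMIs). At an equal depth of 1500 UMIs per cell (12 and 3 cells were shallower and dropped) the shares came to 20.2% (15.5 to 25.7) and 2.04% (0.753 to 4.39). T or NK cell-like cells, which should lack the gene, had it in 0 of 542 cortical surface cells (up to 0.554%, median 5939 UMIs) and in 1 of 607 bone-associated cells (0.165%, median 6125 UMIs). Cortical surface libraries 1 and 2 held 78 and 135 of the 264 mesenchymal-like cells but only 38 and 31 of the 542 T or NK cell-like cells. The limit is therefore wider for these libraries taken alone.

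Endothelial RNA in these cells was measured directly. Of the 169 cortical surface mesenchymal-like cells with a Cdh5 UMI, 0 had UMIs of 3 or more of 9 endothelial markers, which allows up to 1.78%. Among endothelial-like cells with a Cdh5 UMI, 398 of 398 did. The same 9 markers named the endothelial-like class, and a cluster led by at least 50% of them could not be named mesenchymal-like. Both shares were therefore partly set by the naming. The 9 markers together came to 23.0, 48.9, 50.5 and 19.0 CPM in the mesenchymal-like cells of cortical surface libraries 1 to 4, with 5, 1, 7 and 7 of the 9 at 0. In bone-associated libraries 1 and 2 they came to 304 and 54.1, with 0 markers at 0, and of the 31 bone-associated cells with a Cdh5 UMI, 2 had 3 or more of them. In the bone-associated class the library with more Cdh5 was thus the one with more endothelial marker RNA, and the part of that RNA in its Cdh5 level was not tested.

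Cdh11 was found in 61 of 264 cortical surface mesenchymal-like cells (23.1%, 18.2 to 28.7) and in 273 of 297 bone-associated cells (91.9%, 88.2 to 94.8), and in 8.33% and 61.9% after thinning. Its level varied between clusters of the class. The bone-associated cluster led by Comp and Cilp2 (192 cells) had 941 CPM, the cluster led by Apod and Inmt (91 cells) 549, and that led by Ptx3 and Dpep1 (14 cells) 292. The last of these held 141 CPM of Cdh13, against 0.325 and 2.43 in the others.

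On the cortical surface the mesenchymal-like cells formed 1 cluster. Split once more at a low resolution, it gave 227 cells led by Gchfr and Kcnip4 with 33.5 CPM of Cdh11, and 37 cells led by Mfap5, Slc4a10 and Fn1 with 244. In the larger part the Cdh11 level of the 4 libraries ran from 30.1 to 41.6. In the smaller part the 3 libraries with at least 5 cells had 90.4, 284 and 294. Cdh5 was 152 in the larger part and 135 in the smaller. These values are descriptions, since the parts were drawn from the same cells.

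Neither arachnoid-like nor pial-like cells could be named separately from the fixed markers at any resolution tried with the filters used. With up to 20% mitochondrial UMIs allowed, 1 sub-cluster was named arachnoid-like at resolution 1.5, led by 3 of the 6 arachnoid markers, and 0 were named pial-like. On the cortical surface the 7 pial markers each had a UMI in 57.6% (Bmp2) to 94.7% (Gjb2) of the 264 cells, and the 6 arachnoid markers in 0% (Rspo2) to 39.8% (Ppp1r1a). In the bone-associated class the pial markers ranged from 1.35% (Lama1) to 97.3% (Igfbp4) of cells and the arachnoid markers from 0.337% (Dpp4) to 56.9% (Bnc2). A comparison of Cdh1 or Cdh5 between leptomeningeal layers was therefore not made.

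**Figure D3:**
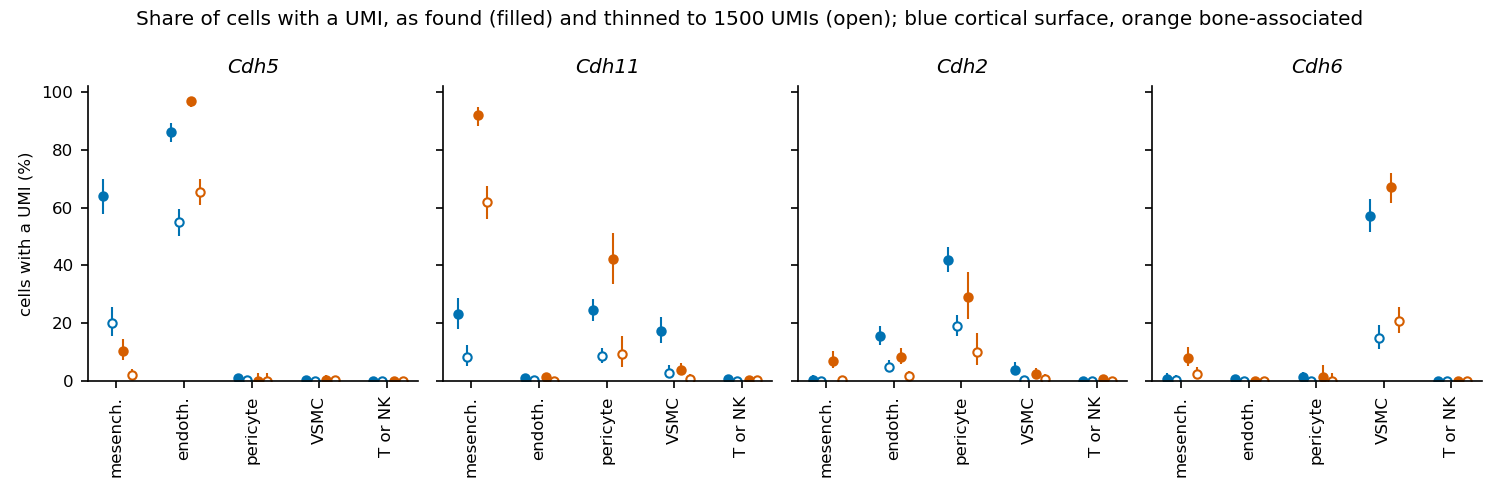
Share of cells (%) with at least 1 UMI of Cdh5, Cdh11, Cdh2 and Cdh6 in 5 classes, as found (filled) and after thinning each cell to 1500 UMIs (open), with 95% exact intervals, cortical surface in blue and bone-associated in orange. T or NK cell-like cells mark the background and lie at 0 or close to it for all 4 genes.

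In endothelial-like cells 7.25% of 7711 genes tested were called between the preparations. Of the cadherins 3 passed the filter and 1 was called. The called gene, Cdh13, passed only through the bone-associated cells, where it was higher. The 462 cortical surface cells held 23 of its UMIs, so its entry and its direction were not independent. Cdh13, which is known in vascular cells as a receptor for adiponectin, was 2.07, 6.82, 21.3 and 7.74 CPM in cortical surface libraries 1 to 4 (9.48 ± 8.25) and 41.2 and 53.8 in the bone-associated libraries (47.5 ± 8.96), with no overlap. It was 6.09-fold lower on the cortical surface (log2 fold change -2.61 ± 0.39 SE, edgeR adjusted p = 0.000127). Cdh5 did not pass (log2 fold change -0.56 ± 0.20 SE, edgeR adjusted p = 0.0796). Cdh2 was 39.4, 30.0, 30.4 and 32.5 in the cortical surface libraries (33.1 ± 4.35) and 19.1 and 11.6 in the bone-associated libraries (15.3 ± 5.26). Its groups did not overlap and its adjusted p was 0.0156 by edgeR, but its log2 fold change of 1.12 ± 0.30 SE was under the size limit.

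The Cdh13 call depended on which clusters entered the class. A cluster in each preparation led by Gkn3 and Cytl1 carried 7 of 9 endothelial markers and 5 of 5 arterial markers. It was left unnamed because its 10 leading genes held none of the 9 but did hold a marker of another class (Egfl8 of the Schwann list on the cortical surface, Stmn2 of the neuron list in the bone-associated cells). Cdh13 was at 427, 297, 79.9 and 198 CPM in the 77 such cells of cortical surface libraries 1 to 4 and at 296 and 323 in the 144 bone-associated cells. Over all their cells these clusters stood at 284 and 314, above every other endothelial cluster of either preparation, and cortical surface library 3 alone stood below the next of them (82.7). With the Gkn3-led clusters counted as endothelial-like, a setting added after the values were seen, the log2 fold change of Cdh13 was -1.05 (edgeR adjusted p = 0.0202) and the call was lost.

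**Figure D4:**
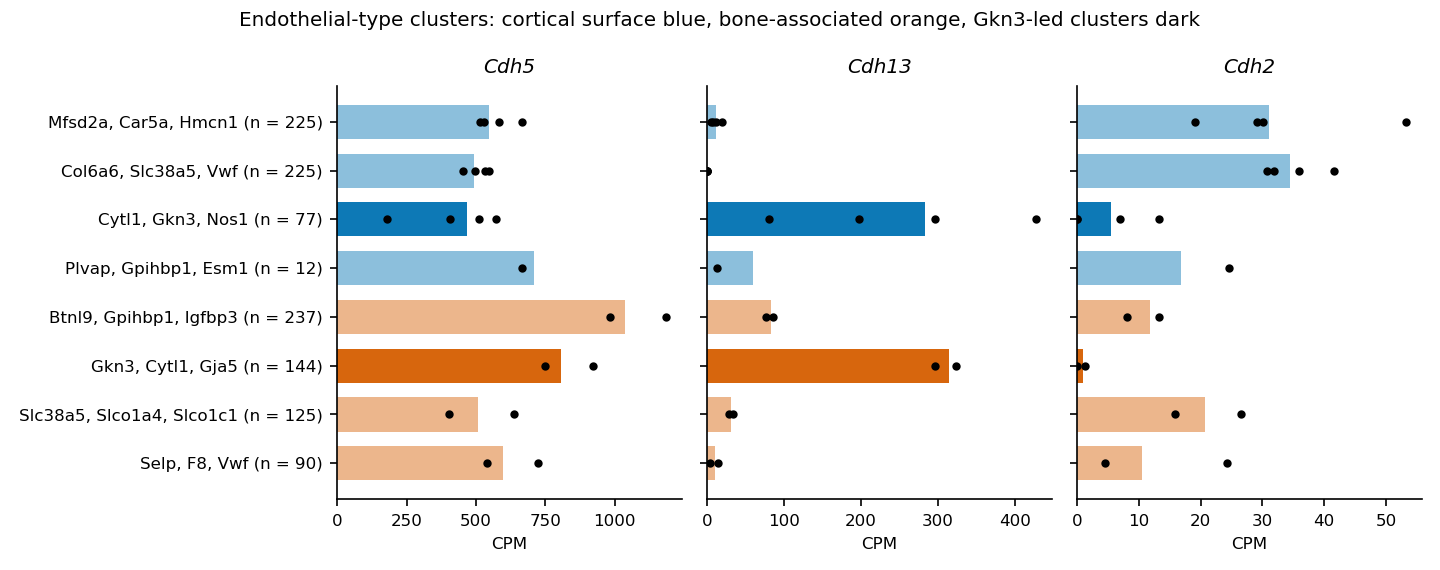
Cdh5, Cdh13 and Cdh2 in the endothelial clusters of both preparations, in CPM, with bars at the level over all cells of a cluster and points for libraries with at least 5 cells in it, and n the number of cells. The 2 Gkn3-led clusters (dark bars) hold the highest Cdh13 levels, 284 and 314, and the lowest Cdh2 levels, 5.53 and 0.849.

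Within the bone-associated endothelial-like class the cluster led by Btnl9 and Gpihbp1 (237 cells) had 1038 CPM of Cdh5 and 82.7 of Cdh13. The cluster led by the blood-brain barrier transporter genes Slc38a5 and Slco1a4 (125 cells) had 509 and 30.9, and that led by Selp, F8 and Vwf (90 cells) had 597 and 10.5. On the cortical surface the Mfsd2a-led cluster (225 cells) had 546 of Cdh5 and 11.8 of Cdh13, and the Col6a6- and Slc38a5-led cluster (225 cells) 492 and 0. A cluster of 12 cells led by Plvap had 708 of Cdh5 and 59.0 of Cdh13. The Btnl9-led cluster, with 1184 and 982 in its 2 libraries, held the highest Cdh5 level of all endothelial clusters, and the other clusters of both preparations with over 12 cells lay between 468 and 807. Of 7 markers of barrier capillary endothelium, 1 led the Btnl9-led cluster, against 7 in the Mfsd2a-led and 6 in the Col6a6-led cluster. The endothelial-like populations compared between the preparations were thus not alike, and the part of this in the Cdh13 difference was not tested.

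Cdh2, which joins pericytes to endothelium, was highest in pericyte-like cells on the cortical surface. It was 127, 96.0, 166 and 126 CPM in cortical surface libraries 1 to 4 (129 ± 28.6) and 74.0 and 42.1 in the bone-associated libraries (58.1 ± 22.5), without overlap. A Cdh2 UMI was present in 209 of 498 cortical surface cells (42.0%, 37.6 to 46.4) and 38 of 130 bone-associated cells (29.2%, 21.6 to 37.8). In this class 6.19% of 7269 genes were called between the preparations, and of the 2 cadherins tested, 0 were called by edgeR, although 1, Cdh2, had an adjusted p below the threshold. The log2 fold change of Cdh2 was 1.12 ± 0.31 SE (edgeR adjusted p = 0.0349), below the size limit. Cdh11 was 69.7 ± 6.31 on the cortical surface and 103 ± 26.4 in the bone-associated cells (log2 fold change -0.64 ± 0.25 SE, edgeR adjusted p = 0.158).

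The pericyte-like class of the cortical surface was made of 2 clusters with unequal Cdh2. The cluster led by Atp13a5 and Abcc9, known pericyte genes (240 cells), had 177 CPM of Cdh2, 18.9 of Cdh4 and 62.5 of Cdh11. The cluster led by Colec11 and Ccl19 (258 cells) had 82.5, 1.92 and 73.5. Without the latter cluster, a setting added after the values were seen, the log2 fold change of Cdh2 between the preparations was 1.65 (edgeR adjusted p = 0.000398) and was called. The bone-associated pericyte-like cluster, which also had Colec11 and Ccl19 among its 10 leading genes, was kept whole there, so the populations compared were not alike. Without bone-associated library 1 it was 1.36 (edgeR adjusted p = 0.0283), also called. Mesenchymal marker RNA was present in the class at 1075 to 1566 CPM on the cortical surface and 2795 to 3361 in the bone-associated cells, and its part in the Cdh11 levels was not tested.

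Cdh4 was highest in pericyte-like cells on the cortical surface, at 7.57, 3.27, 4.04 and 17.4 CPM (8.07 ± 6.49), and its libraries overlapped with those of mesenchymal-like cells. It was found in 14 of 498 pericyte-like cells (2.81%) and passed the filter in no comparison.

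Cdh6 (K-cadherin) marked VSMC-like cells, the contractile wall of arteries and arterioles, in both preparations. It was 100 and 83.6 CPM in cortical surface libraries 1 and 2 (91.9 ± 11.7) and 154 and 106 in the bone-associated libraries (130 ± 33.9). Cortical surface libraries 3 and 4 held 2 and 3 VSMC-like cells and entered no sum. A Cdh6 UMI was found in 57.2% of 304 cortical surface cells (51.5 to 62.9) and 67.0% of 339 bone-associated cells (61.7 to 71.9), and the other classes other than Schwann-like and bone-associated mesenchymal-like cells had it in at most 1.61% of cells. Between the preparations 6.04% of 8390 genes were called, and of the 2 cadherins tested, 1 was called. Cdh6 was not (log2 fold change -0.62 ± 0.24 SE, edgeR adjusted p = 0.130).

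The called gene was Cdh11, at 27.5 and 13.2 CPM in the cortical surface VSMC-like cells and 3.03 and 4.77 in the bone-associated cells (log2 fold change 2.18 ± 0.46 SE, edgeR adjusted p = 0.00408). It passed the detection filter only through the cortical surface cells, where it was higher, so its entry and its direction were not independent. Of the cortical surface VSMC-like clusters, the largest (261 cells) had 14.7 CPM of Cdh11, and the others of 25 and 18 cells had 57.9 and 48.6. Olfr558 was among the 10 leading genes of the cluster of 25 cells. It was also among those of bone-associated clusters of 49 and 46 cells, with 6 of 7 VSMC markers, that stayed unnamed and entered no sum. A cortical surface cluster of 27 cells with Olfr558 stayed unnamed too, so the populations compared need not be alike. Without cortical surface library 1 the log2 fold change was 1.68 (edgeR adjusted p = 0.0667) and the call was lost. Summed mesenchymal markers in the class were 468 to 550 on the cortical surface and 443 to 459 in the bone-associated libraries.

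**Figure D5:**
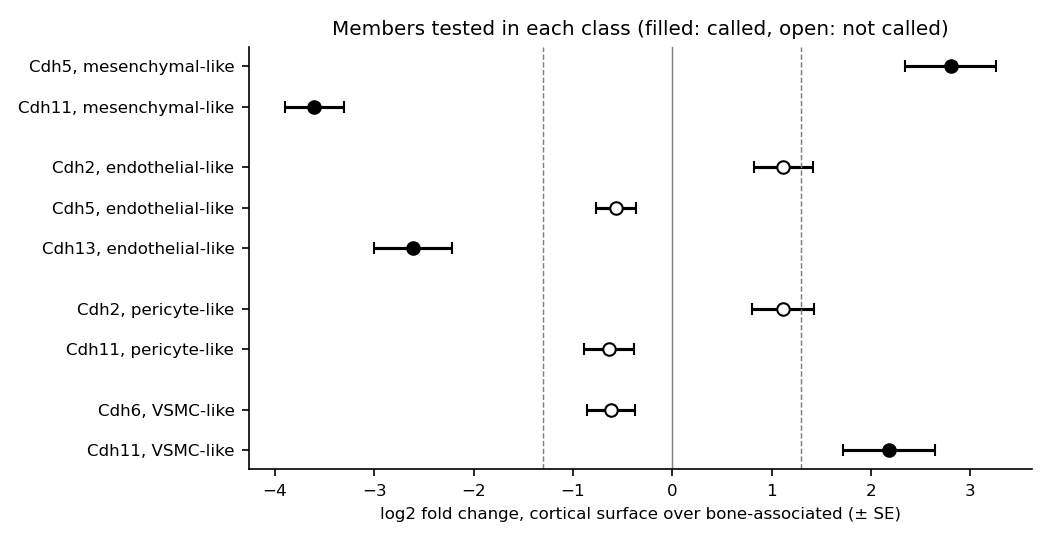
Log2 fold change of each cadherin gene tested within a class, cortical surface over bone-associated, with 1 SE on either side; filled points were called and open points were not, and dashed lines mark the size limit of 1.3. Cdh11 lies at -3.60 in mesenchymal-like cells and at 2.18 in VSMC-like cells.

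Cdh19, a cadherin of the Schwann cell lineage, was carried by Schwann-like cells, a class found among bone-associated cells (16 and 71 per library) and not named on the cortical surface. The libraries had 887 and 410 CPM (649 ± 337). It was found in 53 of 87 cells (60.9%, 49.9 to 71.2) and in 0 of 452 endothelial-like cells. The mean level was 299 when libraries were clustered separately. The cluster led by Scn7a and Gfra3, genes of non-myelinating Schwann cells (47 cells), had 754 CPM of Cdh19, 104 of Cdh2 and 4.01 of Cdh1. Since the cluster was drawn from the same cells, these values were not tested.

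Cdh1 was otherwise scarce. In Schwann-like cells it was at 11.1 and 30.7 CPM in bone-associated libraries 1 and 2, from 10 UMIs in 8 of 87 cells. Dendritic-like cells had it at 5.03 ± 6.04 on the cortical surface and 6.52 ± 7.42 in the bone-associated libraries, and cortical surface T or NK cell-like cells at 8.78 ± 5.81, in 14 of 542 cells (2.58%). B cell-like cells had 0 UMIs in both preparations. In the bone-associated libraries Schwann-like and dendritic-like cells overlapped, and both lay above T or NK cell-like cells (mean 0.337) in every library. On the cortical surface the T or NK cell-like and dendritic-like cells overlapped.

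In the immune classes the other cadherins had means of at most 16.9 CPM. Border macrophage-like cells of the bone-associated libraries had Cdh11 at 16.9 ± 3.49 and Cdh5 at 16.3 ± 11 CPM, against 3.8 ± 3.79 and 3.88 ± 2.22 on the cortical surface. Cdh6 was at 0 UMIs in border macrophage-like, dendritic-like, microglia-like and T or NK cell-like cells. Cdh2 in dendritic-like cells (13.7 ± 13 in the bone-associated libraries) came from 6 of 217 cells. Free RNA was not corrected for, and its part in these levels was not tested.

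Classes were next compared within each preparation, in a fit that held the library as a block, to ask how sharply each cadherin separates neighbouring cell types. A gene that passed the detection filter in any class of the fit was tested in every pair of classes. On the cortical surface 9547 genes were tested, among them 4 cadherins (Cdh2, Cdh5, Cdh6 and Cdh11). Between mesenchymal-like and endothelial-like cells 26.2% of all genes and 3 of the 4 were called. The corresponding values were 19.3% and 2 for mesenchymal-like against pericyte-like cells and 26.2% and 4 for mesenchymal-like against VSMC-like cells. For endothelial-like against pericyte-like cells they were 24.6% and 3, and against VSMC-like cells 28.6% and 4. For pericyte-like against VSMC-like cells they were 15.7% and 4. Between mesenchymal-like and VSMC-like cells, Cdh2 and Cdh11 were lost without cortical surface library 2 (log2 -2.48 and 0.849). That fit held VSMC-like cells of library 1 only. Between pericyte-like and VSMC-like cells, Cdh5 was kept in 10 of 17 alternatives and Cdh11 in 14 of 16. Such counts, here and below, cover only alternatives in which the gene was tested. That Cdh5 call rested on 9 UMIs in 6 of 498 pericyte-like cells, and 2 of the 6 had 3 or more of the 9 endothelial markers. With no doublet removal its log2 fold change was 0.0769. Cdh5 had passed the filter through other classes.

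Cdh5 was 3.36-fold lower in cortical surface mesenchymal-like than in endothelial-like cells (log2 fold change -1.75 ± 0.16 SE, edgeR adjusted p = 6.79e-12). It was 45.5-fold higher than in pericyte-like cells (log2 5.51 ± 0.34 SE, edgeR adjusted p = 1.23e-16). Cdh11 was 28.3-fold higher in mesenchymal-like than in endothelial-like cells (log2 4.82 ± 0.42 SE, edgeR adjusted p = 1.31e-12) but was not called against pericyte-like cells (log2 0.25 ± 0.24 SE, edgeR adjusted p = 0.458). Cdh2 was 3.5-fold lower in endothelial-like than in pericyte-like cells (log2 -1.81 ± 0.19 SE, edgeR adjusted p = 2.61e-10) and 21.9-fold higher in pericyte-like than in VSMC-like cells (log2 4.45 ± 0.31 SE, edgeR adjusted p = 7.34e-15). Cdh6 was 27.4-fold lower in pericyte-like than in VSMC-like cells (log2 -4.77 ± 0.41 SE, edgeR adjusted p = 1.99e-12). The 2 mural classes thus differed in Cdh2 and Cdh6 in opposite directions. In this fit Cdh6 passed the detection filter only through VSMC-like cells, where it was higher, so its entry and its direction were not independent.

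The bone-associated libraries gave 10499 genes tested, with 6 cadherins among them (those above, Cdh13 and Cdh19). Of all genes 26.5% were called between mesenchymal-like and endothelial-like cells, with 6 of the 6 cadherins. Of these, Cdh6 and Cdh19 passed the filter through other classes, VSMC-like and Schwann-like cells. They had 34 and 11 UMIs in mesenchymal-like cells and 0 in endothelial-like cells. DESeq2 called 3 of the 6, losing Cdh5, Cdh19 (adjusted p = 0.0590) and Cdh2 (log2 -1.26). In edgeR Cdh2 lay at the size limit and kept its call in 3 of 12 alternatives, against 9 of 12 for Cdh19. The values were 15.3% and 3 for mesenchymal-like against pericyte-like cells, 26.6% and 4 for mesenchymal-like against VSMC-like cells, and 21.4% and 4 for endothelial-like against pericyte-like cells. They were 27.7% and 4 for endothelial-like against VSMC-like cells and 14.9% and 3 for pericyte-like against VSMC-like cells. For Schwann-like against mesenchymal-like cells they were 18.6% and 3. Between mesenchymal-like and pericyte-like cells the Cdh5 call was kept in 8 of 12 alternatives. Between mesenchymal-like and VSMC-like cells Cdh5 was kept in 9 of 12 and Cdh19 in 8 of 12. Cdh13 between endothelial-like and pericyte-like cells was kept in 7 of 11.

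In these libraries Cdh5 was 43.4-fold lower in mesenchymal-like than in endothelial-like cells (log2 -5.44 ± 0.33 SE, edgeR adjusted p = 2.16e-12), a call that DESeq2 did not make (adjusted p = 0.110). Pericyte-like cells held 0 Cdh5 UMIs, so endothelial-like cells were at least 264-fold higher with 3 UMIs as the limit for a count of 0. Over the alternatives this log2 fold change ran from 6.28 to 13.05. Cdh11 was 9.02-fold higher in mesenchymal-like than in pericyte-like cells (log2 3.17 ± 0.25 SE, edgeR adjusted p = 2.21e-10), which was lost when each library was clustered on its own (log2 3.99, edgeR adjusted p = 0.104). Cdh6 had 0 UMIs in endothelial-like cells, and VSMC-like cells were at least 169-fold higher by the same limit. Cdh13 was 14.8-fold higher in endothelial-like than in VSMC-like cells (log2 3.88 ± 0.53 SE, edgeR adjusted p = 7.76e-07). Against mesenchymal-like cells, Schwann-like cells had 171-fold more Cdh19 (log2 7.42 ± 0.38 SE, edgeR adjusted p = 4.92e-13). They also had 11.7-fold more Cdh2 (log2 3.55 ± 0.50 SE, edgeR adjusted p = 4.26e-06) and 68.6-fold less Cdh11 (log2 -6.10 ± 0.41 SE, edgeR adjusted p = 1.57e-11). Cdh19 passed the detection filter only through Schwann-like cells and Cdh13 only through endothelial-like cells, where each was higher. For both genes entry and direction were therefore not independent.

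Whether the class differences themselves differed between the preparations was tested as an interaction, added after the values were seen. Of 10686 genes 9.87% were called for mesenchymal-like against endothelial-like cells, with 4 of 5 cadherins tested. Of these calls Cdh6 was kept in 10 of 19 alternatives. For mesenchymal-like against pericyte-like cells the values were 7.35% and 2, and for mesenchymal-like against VSMC-like cells 8.91% and 3. The difference in Cdh5 between mesenchymal-like and endothelial-like cells was 3.70 ± 0.40 SE on the log2 scale smaller in size on the cortical surface (edgeR adjusted p = 3.83e-08). For Cdh11 the mesenchymal-like excess over pericyte-like cells differed by -2.93 ± 0.36 SE on the log2 scale, smaller on the cortical surface (edgeR adjusted p = 5.02e-07). These tests use the same mesenchymal-like libraries as the comparison between preparations.

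The other 15 cadherin genes of the list (among them Cdh3, Cdh8, Cdh15 and Cdh23) passed the detection filter in 0 comparisons. Of 20 cadherin partner genes (catenins, nectins and related junction genes), 15 were tested in mesenchymal-like cells, where 2 were higher on the cortical surface and 1 was lower, beside the 14.9% of all genes called. Their median log2 fold change was -0.05, against -0.04 over all genes tested. Tjp1, the tight junction scaffold ZO-1, was higher (log2 2.24 ± 0.34 SE, edgeR adjusted p = 3.27e-05), as was Afdn, the nectin-binding afadin (log2 1.48 ± 0.34 SE, edgeR adjusted p = 0.00256). Ctnnd2, delta-catenin, was lower (log2 -5.93 ± 0.80 SE, edgeR adjusted p = 7.05e-06). The core catenins Ctnnb1 (log2 -0.16 ± 0.28 SE, edgeR adjusted p = 0.806) and Ctnna1 (log2 -0.54 ± 0.28 SE, edgeR adjusted p = 0.212) were not called.

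In endothelial-like cells 13 partners were tested and 0 were called by edgeR, beside 7.25% of all genes. Jup, plakoglobin, came closest, with an edgeR adjusted p of 0.000272 and a log2 fold change of -1.28 ± 0.21 SE, under the size limit. In pericyte-like cells 1 of 12 was called (6.19% of all genes), Plekha7, a p120-catenin binding protein, higher on the cortical surface (log2 2.48 ± 0.60 SE, edgeR adjusted p = 0.0147). In VSMC-like cells 1 of 13 was called (6.04% of all genes), Arvcf, a relative of p120-catenin, also higher there (log2 1.65 ± 0.27 SE, edgeR adjusted p = 0.000393).

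Between endothelial-like and pericyte-like cells 8 were higher and 6 lower of 17 tested on the cortical surface (24.6% of all genes were called), and 9 and 3 of 18 in the bone-associated libraries (21.4%). Ptprb, the phosphatase VE-PTP that acts on Cdh5, was higher in endothelial-like cells (log2 7.45 ± 0.31 SE on the cortical surface, edgeR adjusted p = 2.37e-22). Arvcf was lower there (log2 -5.55 ± 0.30 SE, edgeR adjusted p = 1.55e-18). Cortical surface mesenchymal-like cells had less Ptprb than endothelial-like cells (log2 -10.17 ± 0.45 SE, edgeR adjusted p = 2.35e-21). Ctnna3, alpha-T-catenin, was lower in mesenchymal-like than in VSMC-like cells in both preparations (log2 -9.27 ± 0.78 SE and -9.52 ± 0.83 SE, edgeR adjusted p = 6.74e-12 and 7.01e-10).

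The genes whose levels ran most like each cadherin over 69 sums of library and class, among 12261 genes, are given by Pearson's r of log2(CPM + 1), as a description with no test, since sums of a library share its depth. For Cdh5 they were Hmcn1 (0.91), Ramp2 (0.89) and Ccdc85a (0.87), and for Cdh11 Foxd1 (0.89), Srpx (0.88) and Omd (0.87). Cdh19 ran with Kcna1 (0.97) and Sox10 (0.91), and Cdh6 with Sgca (0.85), Cnn1 (0.83) and Gpr20 (0.82). Those of Cdh2 were Adgrl3 (0.82), Tspan15 (0.81) and Lurap1l (0.81), and those of Cdh13 Ankrd29 (0.81), Stc1 (0.78) and Dysf (0.78). For the sparse genes Cdh4 (103 UMIs in all) and Cdh1 (73 UMIs) the highest values were 0.83, with Zfp334, and 0.60, with L1cam.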

How the data were processed

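The authors deposited raw UMI count matrices of 6 libraries, made with Cell Ranger (3 in the submitters' notes, 6.1.2 in the matrix headers) on mm10, and per the labels no normalization was applied. All labels describe a papain digest of another brain region, whereas the study's methods name collagenase and dispase. Filters required 500 detected genes and a mitochondrial share of no more than 10%, and 124 doublets were removed at 0.8% per 1000 cells from scores against 2 simulated doublets per cell. Cells of a preparation were clustered (2000 variable genes, 30 components, Leiden at resolution 1.5). A cluster was named when at least 3 markers of a class led it, each with a UMI in at least 20% of its cells and a mean 2-fold that of other cells. It stayed unnamed where markers of a second class led it too (at least 50% of them), or where a different class had more markers than its own among its 10 leading genes.

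Counts were summed per library and class (at least 10 cells) and tested with edgeR 4.0.16 (quasi-likelihood, TMM, genes detected in over 10% of cells of a class). DESeq2 1.42.0 was an alternative. SEs were derived from the F statistics. Scripts were tested on simulated data. The members and lists were chosen with earlier results of these data known. All 8 members were named, of each list the 3 called genes with the largest change, and of each member the 3 genes most like it (genes with at least 200 UMIs; 1 of those of Cdh19 is not reported here). Promoters and proteins were not used here.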

Additional observations from a re-analysis of the deposited data

Results flagged for a closer look

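Class differences were compared between the preparations by an interaction test (edgeR's quasi-likelihood test, added after the values were seen). All 5 cadherins tested were called in a contrast of mesenchymal-like cells with another class. The shares of all 10686 genes called were 9.87% against endothelial-like, 7.35% against pericyte-like and 8.91% against VSMC-like cells. Of the 5 cadherins, 4, 2 and 3 were called there. Values are the class difference on the cortical surface minus that in the bone-associated libraries, on the log2 scale. Between mesenchymal-like and endothelial-like cells they were -4.35 for Cdh2 (edgeR adjusted p = 0.000829), 3.70 for Cdh5 (edgeR adjusted p = 3.83e-08), -5.50 for Cdh6 (edgeR adjusted p = 0.0248) and -3.83 for Cdh11 (edgeR adjusted p = 0.00614). Against pericyte-like cells they were -4.29 for Cdh2 (edgeR adjusted p = 0.00118) and -2.93 for Cdh11 (edgeR adjusted p = 5.02e-07). Against VSMC-like cells they were -4.29 for Cdh2 (edgeR adjusted p = 0.00704) and -5.75 for Cdh11 (edgeR adjusted p = 3.58e-10).

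Cdh13 gave -7.34 against VSMC-like cells (edgeR adjusted p = 0.00656), but cortical surface mesenchymal-like cells held 0 of its UMIs, so this value depends on the prior count and is no bound. The value of Cdh6 depends on it too, since bone-associated endothelial-like cells held 0 Cdh6 UMIs. Cdh2 in cortical surface mesenchymal-like cells came from 1 UMI and Cdh6 from 5 UMIs in 1 library, so the sizes of their differences are uncertain. The Cdh6 call was kept in 10 of 19 alternatives and was lost without bone-associated library 1 or 2 (edgeR adjusted p = 0.0661 and 0.150) or cortical surface library 3 or 4 (0.0549 and 0.0577). The calls of Cdh11 against endothelial-like cells and of Cdh13 were lost without cortical surface library 2 (edgeR adjusted p = 0.177 and 0.0803), and that of Cdh2 against VSMC-like cells without bone-associated library 1 (edgeR adjusted p = 0.0555). The outlier check, run on 14 groups of 4 libraries, found 0.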

How the results depend on the processing

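Counts of called cadherins are given first. Mesenchymal-like cells gave 2 between the preparations in every setting, each library left out in turn included, except with no detection filter (3). With cells thinned to 1500 UMIs the count was 0 in endothelial-like cells (1 in the report) and 0 in VSMC-like cells (1), since the called gene was no longer tested, 13 over the cortical surface class contrasts (20), 18 over the bone-associated ones (27) and 3 over the interactions (9). With each library clustered on its own the bone-associated class contrasts gave 17. The added settings gave 0 in endothelial-like cells with the Gkn3-led clusters and 1 in pericyte-like cells (0) without the Colec11-led cluster. Leaving out each library in turn gave 1 to 2 in endothelial-like, 0 to 1 in pericyte-like and 0 to 1 in VSMC-like cells, 16 to 20 over the cortical surface class contrasts and 7 to 9 over the interactions. Endothelial-like cells gained Cdh2 without bone-associated library 1 (log2 fold change 1.39). The bone-associated class contrasts could not be fitted without a library. Under that own-library clustering the bone-associated levels of Cdh13 in endothelial-like cells and of Cdh19 in Schwann-like cells moved to 76.9 and 299 CPM. For single cadherins, changes were counted only where the gene was tested in both the main fit and the alternative. Gains were counted only between the preparations. On this count the alternatives lost a call 46 times, gained one 2 times and reversed 0, and the added settings lost 23 and gained 1. Calls lost or gained because a gene left or entered the test are not among these. Beyond the fewer genes tested after thinning, the causes were not tested.

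Libraries of the preparations shared only a number: their deviations correlated at 0.204, 0.211, 0.270 and 0.392 in the 4 classes, over 2 numbers. With a replicate block the counts of called cadherins were 2, 1, 0 and 1 in mesenchymal-like, endothelial-like, pericyte-like and VSMC-like cells, as without it, and calls over all genes 1512, 561, 462 and 555 against 1426, 559, 450 and 507. With no replicate block the class contrasts gave 20 cadherin calls on the cortical surface and 26 in the bone-associated libraries, and the interactions 9.

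Calls over all genes fell with thinning to 582, 276, 205 and 141 in these 4 classes, to 6696 from 13419 and to 7358 from 15859 over the class contrasts, and to 1044 from 2792 over the interactions. Own-library clustering gave 9466 for the bone-associated contrasts. With no filter they were 919, 690 and 777 in endothelial-like, pericyte-like and VSMC-like cells, and pericyte-like cells gave 240 without bone-associated library 2. Cdh1 and Cdh4, with 73 and 103 UMIs in all, passed the detection filter in 0 comparisons, and differences in them were not detectable at this depth.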
